A study of Mus musculus with 30 samples.

Results

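KO1 and KO2 are 2 clones of the J774A.1 line, a mouse macrophage-like cell line. Each carries a homozygous CRISPR deletion of B2_Mm2.Dicer1, a B2 SINE in an intron of Dicer1. The comparison described here is between their untreated cells, with 3 RNA-seq libraries of KO1 against 3 of KO2, so 6 of the 30 libraries of the series. The members were chosen by the clone and treatment named in the sample titles. All 6 libraries share the loss of the element and the lack of treatment, and by their labels differ only in the clone. KO1 and KO2 are each a single clone, grown from a cell that had been electroporated with Cas9 and guide RNAs and then isolated by dilution, so KO1 and KO2 are both edited lines and the deletion does not distinguish the groups. The other groups used are the same 2 clones given 100 ng/mL interferon-gamma (IFNG) for 4 h (6 libraries) and 3 untreated clones of unedited J774A.1 cells, WT1, WT2 and WT3 (9 libraries). The labels do not say whether libraries of a clone came from separate cultures, so p-values measure the spread between these libraries, which may be technical.

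The guides of the study flank the element, and the same set was used for both clones. The pair that gave the expected cuts in bulk cells is shown because it defines what KO1 and KO2 have in common, with the genomic PAM next to each guide in capitals.
gEC005 (upstream of the B2 SINE): ggccagggaacggctttagaGGG
gEC007 (downstream of the B2 SINE): aaatagtcactgggcaacagTGG

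Clones of a tumour line descend from single cells, so each carries whatever genetic and expression state its founder cell had. Macrophages are phagocytes that take up debris and lipid, present antigen, secrete cytokines and switch large gene programmes on and off with stimulation, and many of these genes are expressed at levels that vary from cell to cell. Dicer1, the gene that hosts the deleted element, encodes the RNase that cuts precursor hairpins into microRNAs.

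The 6 libraries held 23760033 to 29587932 counted fragments, and the 10 most abundant genes took 6.53% to 8.0% of them. Libraries of the same clone differed by more than counting noise, the chi-square divided by its degrees of freedom being 3.37 to 16.1 for each pair. Of 24 macrophage markers, 23 were tested. The summed level of all 24 was 10117 to 10750 CPM (counts relative to library size, TMM-scaled) in KO1 and 9809 to 10385 CPM in KO2. Csf1r, the receptor for the macrophage growth factor CSF1, had 1341 to 1469 CPM over the 6 libraries and did not pass the test (log2FC -0.03 ± 0.05 SE, adjusted p = 0.72). Other markers did pass, with 5 of the 23 called higher and 8 lower in KO1 (56.5%, against 23.2% of all tested genes). Of 27 markers of other cell types, 16 had no count in the 6 libraries, among them Cd3e (T cells), Epcam (epithelium) and Siglech (plasmacytoid dendritic cells), and 4 passed the filter. The summed level of all 27 was 7.5 to 9.86 CPM in KO1 and 7.91 to 9.11 CPM in KO2. None of the 4 was called by edgeR or by DESeq2, and 1 of them, the granulocyte gene S100a8, had an unadjusted p under 0.05 (0.53 ± 0.21, adjusted p = 0.088). Without the first KO1 or the third KO2 library 1 of the 4 was called higher. In bulk RNA, fewer cells of a type and less RNA per cell cannot be told apart.

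In the untreated comparison, 3207 of 13826 tested genes (23.2%) passed an adjusted p of 0.05 in edgeR's quasi-likelihood test, with 1533 (11.1%) higher and 1674 (12.1%) lower in KO1. The log2FC is KO1 minus KO2 throughout, with its SE. Most of these differences were small, with a median absolute log2FC of 0.30, and 330 genes (2.39%) were called with an absolute log2FC of at least 1, of which 143 were higher and 187 lower in KO1. The 3 libraries of KO1 did not overlap the 3 of KO2 for 5413 genes, or 39.2% of those tested. Chromosome 12 held 351 of the 3207 called genes (10.9%), although it held 3.54% of the tested genes, and 344 of these 351 were lower in KO1. That is 20.5% of all genes called lower in KO1 and 0.457% of those called higher. Outside chromosome 12, 2856 of 13337 tested genes (21.4%) were called, 1526 higher and 1330 lower in KO1.

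On chromosome 12, 351 of 489 tested genes (71.8%) were called, against 23.2% over all tested genes. Over the other autosomes and X, the share ran from 16.6% on chromosome 13 to 27.9% on chromosome 6. The median log2FC of chromosome 12 genes was -0.37, a KO1 to KO2 ratio of 0.772, with quartiles of -0.51 and -0.24, and 437 of the 489 (89.4%) lay below 0. The median of all tested genes was 0.0031, and the medians of the other autosomes and X lay between -0.014 (chromosome 3) and 0.032 (chromosome X). The shift was narrow, since 317 chromosome 12 genes (64.8%) had a log2FC between -0.6 and -0.2, against 12.2% of genes elsewhere.

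**Figure D1:**
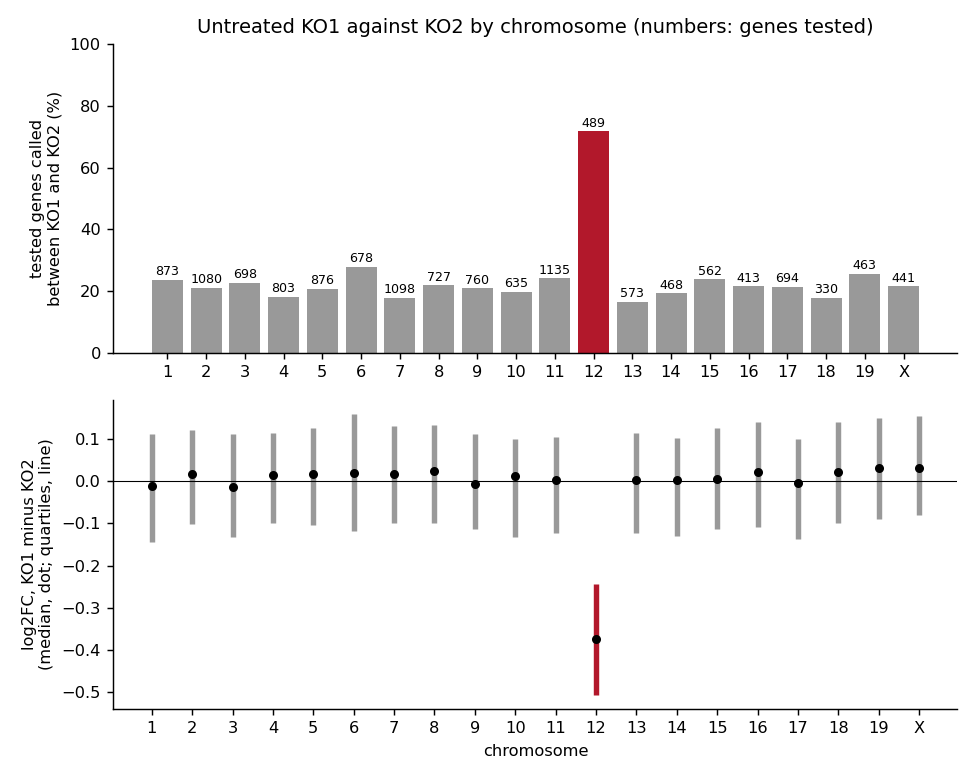
Share of tested genes called between untreated KO1 and KO2 in percent (top, with the number tested over each bar) and log2FC (KO1 minus KO2) by chromosome (bottom, dot for the median and line from the lower to the upper quartile). Chromosome 12 (red) has 71.8% of genes called and a median of -0.37, while no other chromosome drawn passes 27.9% called or a median of 0.032 in size.

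The chromosome 12 shift was present from end to end. Of the 12 stretches of 10 Mb, over tested genes from position 3235504 to 119262855 (mm10), each had a median between -0.46 (90 to 100 Mb, 15 of 18 genes called) and -0.30 (60 to 70 Mb, 21 of 30 called). No stretch with at least 10 tested genes on another chromosome had a median more than 0.3 from that of all genes, in either direction. The share of chromosome 12 genes called rose with the level of the gene, from 11 of 65 under 1 CPM and 58 of 113 at 1 to 10 CPM to 212 of 240 at 10 to 100 CPM and 70 of 71 at 100 CPM or more. On the other chromosomes the same classes gave 9.97%, 18.1%, 23.2% and 29.5%. The medians of the 4 classes on chromosome 12 were -0.25, -0.40, -0.39 and -0.34. The gene above 100 CPM that was not called was Pnn, which encodes a nuclear splicing-associated protein (115 to 117 CPM in KO1, 120 to 128 CPM in KO2, log2FC -0.11 ± 0.04, adjusted p = 0.067).

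Gene type separated the chromosome 12 genes that shared the shift from those that did not. Of 385 protein-coding genes, 328 (85.2%) were called, 322 lower and 6 higher in KO1, with a median log2FC of -0.39, and 373 (96.9%) lay below 0. Of 58 pseudogenes, copies of genes that have lost their coding function, 3 were called, 2 lower and 1 higher, with a median of 0.037, and 25 lay below 0. Pseudogenes elsewhere had a median of 0.053 and 6.92% of them were called. Many pseudogenes share sequence with a parent gene on another chromosome, and how the counting divides such fragments was not tested. They were also low, with a median level of 1.1 CPM on chromosome 12 against 30.1 CPM for protein-coding genes. The 44 chromosome 12 genes of other types, microRNA genes aside, had a median level of 1.21 CPM. Their median log2FC was -0.54, and 19 were called, all lower in KO1. Whether level plays a part in the pseudogene values was not tested. Without pseudogenes, 348 of 431 chromosome 12 genes (80.7%) were called and the median was -0.40.

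**Figure D2:**
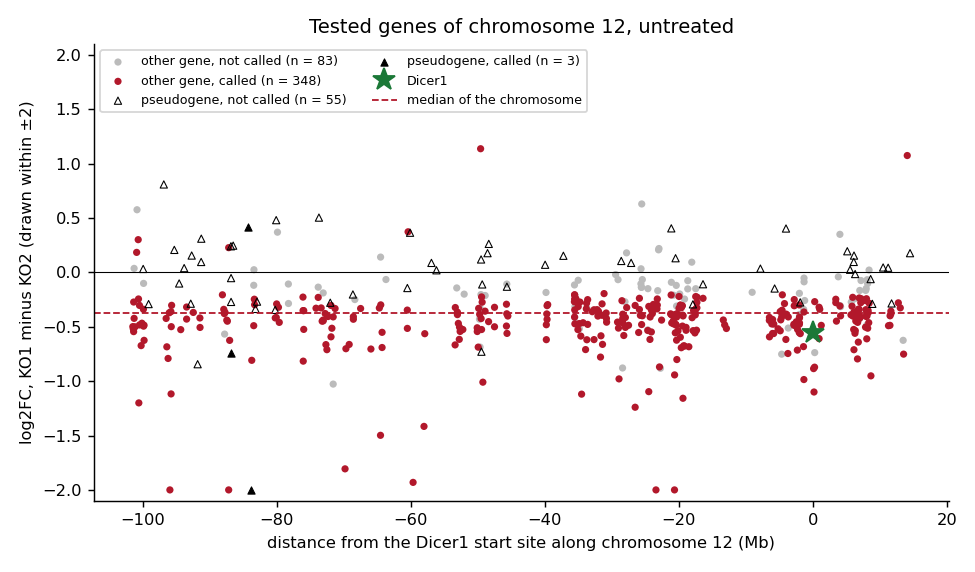
Log2FC (KO1 minus KO2, drawn within ±2) of the 489 tested genes of chromosome 12 against their distance in Mb from the start site of Dicer1 (star). Called genes (red circles) lie around the dashed line at the median of -0.37 along the whole chromosome, while the 58 pseudogenes (triangles) lie around 0.

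The same difference could be read in each library as a share of counts. Genes of chromosome 12 took 2.25%, 2.26% and 2.27% of the counts in the KO1 libraries, and 2.95%, 2.90% and 2.88% in the KO2 libraries. The mean was 2.26% ± 0.00879 (SD, n = 3) in KO1 and 2.91% ± 0.0390 in KO2, and the groups did not overlap. An exact two-sided permutation test gave p = 0.1, the smallest that 3 libraries against 3 allow. In the 9 untreated WT libraries the share was 2.81% to 2.92% (median 2.88%), so 1 KO2 library lay just above the WT range and the other 2 inside it, while all KO1 libraries lay below it.

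Measured against the mean of the untreated WT libraries, taking genes that reached 1 CPM on average, the chromosome 12 median was -0.38 to -0.35 in the 3 KO1 libraries and -0.012 to 0.0076 in the 3 KO2 libraries. Chromosome 6 set both KO clones apart from WT. On chromosome 17 both KO clones lay nearer to WT1 than to WT2 and WT3. The median of chromosome 6 was -0.25 to -0.23 in KO1 and about -0.27 in each KO2 library, against -0.017 to 0.016 in the WT libraries. On chromosome 17 it was 0.18 to 0.22 in KO1, 0.19 to 0.20 in KO2 and 0.15 to 0.17 in WT1, against -0.095 to -0.073 in WT2 and WT3. In the comparison of KO1 with KO2 their medians were 0.020 (chromosome 6) and -0.0050 (chromosome 17).

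**Figure D3:**
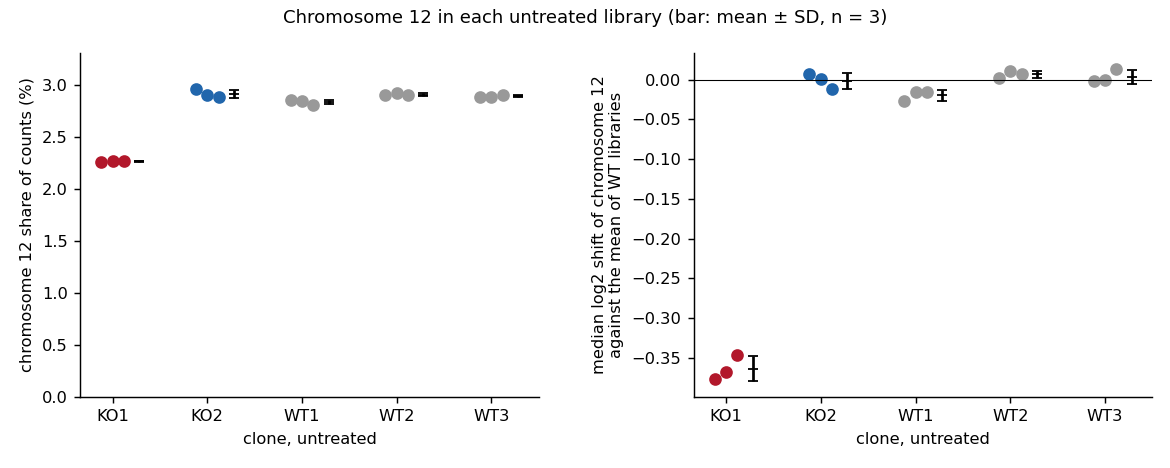
Percent of counts on chromosome 12 (left) and median log2 shift of chromosome 12 genes against the mean of the 9 untreated WT libraries (right) in each untreated library, as points, with mean ± SD (n = 3) beside them. The 3 KO1 libraries lie at 2.25% to 2.27% and -0.38 to -0.35, and every library of the other clones lies at 2.81% or more and at -0.027 or above.

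Dicer1 (ENSMUSG00000041415.10, chromosome 12, 104687742 to 104751952 on the minus strand, mm10) was at 71.1, 73.0 and 70.5 CPM in KO1 and at 108, 104 and 101 CPM in KO2. The groups did not overlap, and the log2FC was -0.56 ± 0.04 (adjusted p = 1.9e-07). The WT libraries ranged from 96.8 to 130 CPM, so that all KO1 libraries lay below the WT range and all KO2 libraries within it. The lower end of that range was WT1 (96.8 to 110 CPM), and the KO2 libraries lay below WT2 and WT3, which were at 120 to 130 CPM. Of the 489 chromosome 12 genes, 86 had a lower log2FC than Dicer1, and 40 of the 311 that averaged 10 CPM or more did.

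To see which chromosome 12 genes departed from the shift that the chromosome shared, the libraries were also scaled on chromosome 12 genes alone, which moves the median log2FC of all genes to 0.38 and of chromosome 12 genes to 0.0071. On that scale 163 of the 489 (33.3%) were called, 87 above and 76 below the rest of their chromosome, and 326 were not. Over all genes this scale called 10509 genes (76%), 10138 higher and 371 lower, so the share of called genes that were higher in KO1 went from 47.8% to 96.5%. Every direction given elsewhere is relative to the median of all tested genes. Dicer1 stayed below the rest of its chromosome at -0.18 ± 0.04 (adjusted p = 0.0016).

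The named genes with the lowest log2FC on chromosome 12 lay well beyond the shared shift. Sdc1, which encodes the heparan sulfate proteoglycan syndecan-1, was at 0.373, 0.197 and 0.270 CPM in KO1 and at 2.32, 2.23 and 2.15 CPM in KO2 (log2FC -2.99 ± 0.26, adjusted p = 7.3e-07). Hdac9, a class IIa histone deacetylase, was at 0.924 to 1.12 CPM in KO1 and 2.79 to 4.06 CPM in KO2 (-1.81 ± 0.20). Pygl, the liver form of glycogen phosphorylase, was at 10.3 to 12.1 and 22.5 to 25.6 CPM (-1.12 ± 0.08). Syne2, which encodes a nesprin of the nuclear envelope, was at 10.6 to 11.9 and 20.1 to 23.8 CPM (-0.98 ± 0.08). Matn3, a matrix protein of cartilage, was at 0.385 to 0.746 and 1.15 to 1.39 CPM (-1.12 ± 0.27). These 5 genes were chosen among those whose 3 KO1 and 3 KO2 libraries did not overlap. Each was also called on the scale of chromosome 12 genes.

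Nfkbia, which encodes the NF-kB inhibitor IkB-alpha, was at 87.1, 77.0 and 84.7 CPM in KO1 and at 180, 159 and 159 CPM in KO2, with a log2FC of -1.01 ± 0.06 (adjusted p = 8.2e-09). All KO2 libraries were above the WT range of 79.3 to 141 CPM, and KO1 was within or just under it. Lgmn, the lysosomal asparaginyl endopeptidase legumain, was at 407 to 445 CPM in KO1 and 684 to 721 CPM in KO2 (-0.71 ± 0.05). Its KO1 libraries lay below and its KO2 libraries above the WT range of 487 to 670 CPM.

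Against the chromosome, 7 genes were higher in KO1. Sp8, a zinc finger transcription factor, was at 2.28, 2.01 and 2.54 CPM in KO1 and at 1.15, 1.28 and 0.806 CPM in KO2 (log2FC 1.07 ± 0.21, adjusted p = 0.0015). Nrcam, a neuronal cell adhesion molecule, was at 51.5 to 60.3 and 40.9 to 46.2 CPM (0.37 ± 0.06), and both clones were above the WT range of 13.2 to 26.7 CPM. Dnmt3a, a de novo DNA methyltransferase, was at 260 to 291 and 235 to 248 CPM (0.18 ± 0.05, adjusted p = 0.0089), and without the second KO2 library its adjusted p was 0.058. Odc1, the first enzyme of polyamine synthesis, was at 109 to 143 and 103 to 105 CPM (0.23 ± 0.07). Its call was lost with DESeq2 (adjusted p = 0.225) and without the third KO1 library (0.132) or any 1 KO2 library (0.078 to 0.091). The pseudogene Mrto4-ps1 (0.42 ± 0.13) lost its call with DESeq2 (adjusted p = 0.13) and without 5 of the 6 libraries in turn (0.0518 to 0.116). The remaining 2, Efr3b (0.30 ± 0.09) and Srp54b (1.14 ± 0.28), had KO1 and KO2 libraries that overlapped.

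Distal chromosome 12 holds the imprinted Dlk1-Dio3 cluster, whose noncoding genes carry many microRNAs. Of the 11 genes listed for the cluster and its flank, Dlk1, Meg3, Rtl1, Rian, Mirg and Dio3 had no count in the 6 libraries and 4 flanking genes were tested, of which 3 were called, all lower in KO1, with a median of -0.31 against 0.0031 over all genes. That is 75% called, beside 23.2% of all genes and 71.8% of chromosome 12 genes. Ppp2r5c, a regulatory subunit of protein phosphatase 2A, was at 173 to 174 CPM in KO1 and 219 to 231 CPM in KO2 (-0.39 ± 0.04). Dync1h1, the dynein heavy chain, fell by 0.31 ± 0.05 and Hsp90aa1, a cytosolic chaperone, by 0.23 ± 0.05 on the log2 scale. On the scale of chromosome 12 genes none of the 3 was below the rest of the chromosome past the threshold. Ppp2r5c was at -0.0093 and Dync1h1 at 0.071. Hsp90aa1 was called above the rest by edgeR, at 0.15 (adjusted p = 0.0083).

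Of 17 tested members of the list of microRNA processing and Argonaute genes, 3 were called higher and 2 lower in KO1 (29.4% called, against 23.2% of all genes), with a median of 0.047. The lower ones were Dicer1 and Tnrc6b. The higher ones were Ago1, an Argonaute protein (107 to 110 against 94.5 to 98.6 CPM, 0.16 ± 0.04), Ran, the GTPase of nuclear export (0.17 ± 0.04, adjusted p = 0.062 without the second KO2 library), and Tarbp2, a partner of Dicer (0.23 ± 0.07), whose call was lost with DESeq2 (adjusted p = 0.089) and without 5 of the 6 libraries in turn. Without the second KO2 library, 1 member was called higher and 1 lower, without the third KO1 library 2 and 1, and without the first KO2 library 3 and 1.

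The named genes that were nearly absent from 1 clone all lay on other chromosomes. Anpep on chromosome 7, which encodes the surface aminopeptidase CD13, was at 79.9, 82.8 and 86.4 CPM in KO1 and at 0.0347, 0 and 0.0336 CPM in KO2, where 2 counts were found in the 3 libraries together. The ratio of the clones was 3569 (95% exact counting interval 988 to 29476). WT libraries had 66.8 to 141 CPM, so that KO1 was within their range and KO2 below it. Such intervals, and the limits below that a count of 0 allows (3 counts over the 3 libraries of a clone), cover counting error only.

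Of 7 genes with at most 3 counts in KO2 and at least 1 CPM in KO1, 5 had established symbols, and beside Anpep these were Ptpn14, Bche, Mpzl3 and Abhd6. Ptpn14, a tyrosine phosphatase of the Hippo pathway, was at 3.43 to 4.39 CPM in KO1 and had no count in KO2, so it was at least 113-fold higher in KO1. Bche (butyrylcholinesterase) and Mpzl3 had no count in KO2 either and were at least 35.9-fold and 33.2-fold higher in KO1. Abhd6, a lipase that hydrolyses monoacylglycerol, was at 3.39 to 3.85 CPM in KO1 with 1 count in KO2, a ratio of 307 (54.7 to 12189). In WT libraries Ptpn14 ran from 0.0857 to 13.3 CPM. The lowest WT library was at 0 for Bche, Mpzl3 and Abhd6, whose highest were at 2.81, 2.22 and 5.0 CPM. These ranges were split by clone. The means in WT1, WT2 and WT3 were 10.7, 0.349 and 0.113 CPM for Ptpn14 and 0.0238, 2.40 and 0.794 CPM for Bche. They were 0, 0.0419 and 2.02 CPM for Mpzl3 and 0, 4.29 and 4.18 CPM for Abhd6.

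In the opposite direction, Itih5, Col18a1 and Tmcc2 had at most 3 counts in KO1. Itih5, a hyaluronan-binding secreted protein, was at 1.54 to 2.15 CPM in KO2 and had no count in KO1, at least 47.5-fold lower. Col18a1, which encodes the collagen that releases endostatin, was at 2.36 to 2.82 CPM in KO2 with 2 counts in KO1, a ratio of 98.4 (26.9 to 817), and Tmcc2 had 3 counts in KO1, a ratio of 46.5 (15.6 to 228). These genes were below the WT range in KO1 and within it in KO2. For Itih5 that range began near the floor, at 0.0710 CPM. Its means were 5.48 CPM in WT1, 0.871 CPM in WT2 and 0.0893 CPM in WT3.

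Other large differences were found at higher levels. Chd3, a helicase of the NuRD chromatin remodelling complex on chromosome 11, was at 6.80, 6.08 and 6.58 CPM in KO1 and at 79.7, 77.6 and 81.1 CPM in KO2, a 12.3-fold difference (log2FC -3.62 ± 0.06, adjusted p = 4.3e-15). KO2 was within the WT range of 33.2 to 109 CPM and KO1 below it. Gpnmb, a lysosomal and phagosomal glycoprotein of lipid-laden macrophages, was at 75.4, 81.4 and 85.2 CPM in KO1 and at 3.96, 4.35 and 5.95 CPM in KO2 (4.07 ± 0.10). Both clones were within the WT range, which ran from 2.32 to 124 CPM. That range was split, with a mean of 121 CPM in WT1, 3.01 CPM in WT2 and 5.76 CPM in WT3. KO1 lay between WT1 and the other WT clones.

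Gas6, the ligand of the TAM receptors that bridge macrophages to apoptotic cells, was at 10.5, 10.8 and 5.97 CPM in KO1 and at 0.202 to 0.243 CPM in KO2 (5.32 ± 0.31), while its relative Pros1, the other TAM ligand, ran the other way, at 0.0395 to 0.154 CPM in KO1 and 1.46 to 2.08 CPM in KO2 (-4.43 ± 0.40). KO2 was below the WT range for Gas6 and above it for Pros1. Nos1, the neuronal nitric oxide synthase, was at 3.43 to 3.62 CPM in KO1 and 0.0347 to 0.256 CPM in KO2 (4.6 ± 0.31), with KO1 above and KO2 below the WT range of 0.5 to 2.68 CPM. Rbpms, an RNA-binding protein, was also higher in KO1 (4.56 ± 0.55), and AI427809, Fam19a5 and Iqgap2 were lower (-5.31 ± 0.36, -4.65 ± 0.27 and -3.28 ± 0.24).

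Among called genes without overlap, the largest differences in mean CPM toward KO1 were in mt-Rnr2, Tmsb4x, Lpl, Spp1 and Vim. Lpl, the lipoprotein lipase that frees fatty acids for uptake, was at 964 to 1172 CPM in KO1 and 516 to 545 CPM in KO2 (0.97 ± 0.06). Spp1, the secreted phosphoprotein osteopontin, was at 1001 to 1510 and 715 to 797 CPM (0.68 ± 0.11), and Vim, the intermediate filament vimentin, at 1684 to 2063 and 1408 to 1475 CPM (0.36 ± 0.06). Tmsb4x, the actin-sequestering thymosin, was at 3217 to 3502 and 2743 to 2877 CPM (0.25 ± 0.06). mt-Rnr2, the mitochondrial large ribosomal RNA, was at 1848 to 2504 and 1580 to 1650 CPM (0.44 ± 0.08), in libraries where mitochondrial genes took 3.15% to 3.88% of counts in KO1 and 3.37% to 3.41% in KO2.

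The largest differences toward KO2 were in Atp1b3, Dab2, Lgmn, Fth1 and Tgfbi. Atp1b3, a subunit of the sodium pump, was at 507 to 536 CPM in KO1 and 882 to 942 CPM in KO2 (-0.81 ± 0.05), with KO2 above the WT range of 344 to 516 CPM. Tgfbi, a secreted matrix protein induced by TGF-beta, was at 129 to 177 and 354 to 380 CPM (-1.23 ± 0.08), also with KO2 above WT. Dab2, an endocytic adaptor, was at 1063 to 1239 and 1409 to 1538 CPM (-0.36 ± 0.06). Fth1, the ferritin heavy chain, was at 1852 to 1944 and 2050 to 2286 CPM (-0.19 ± 0.05, adjusted p = 0.018, or 0.080 without the third KO2 library), and both clones were below the WT range of 2508 to 3054 CPM.

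**Figure D4:**
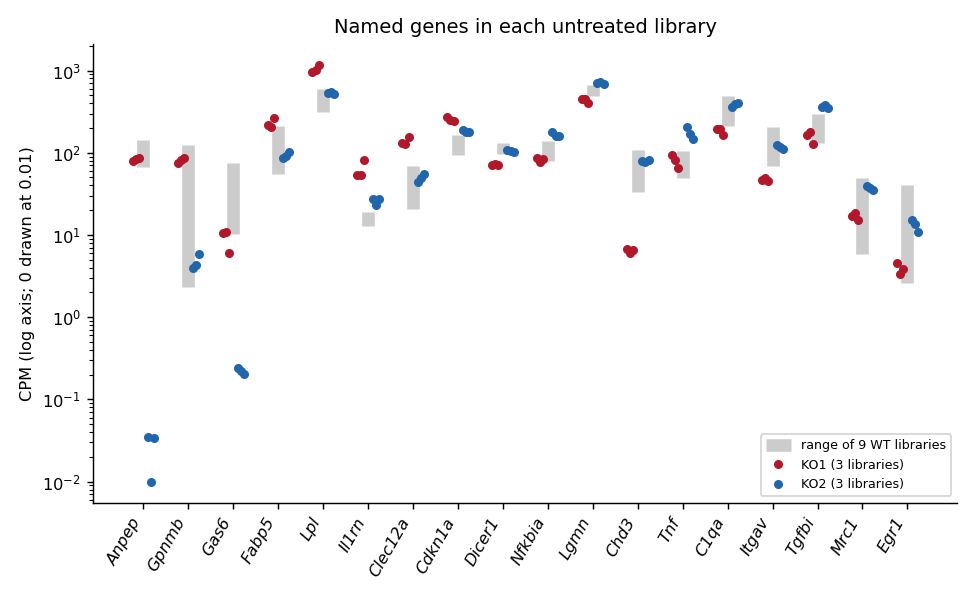
CPM (log axis, 0 drawn at 0.01) of 18 named genes in each untreated KO1 library (red) and KO2 library (blue), with the range of the 9 untreated WT libraries in grey. The clones do not overlap for any of the 18, which the rule for naming genes required of all but Dicer1. Anpep and Gas6 in KO2 and Chd3 in KO1 lie below the WT range.

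Most macrophage gene groups had called members in both directions. Each count is to be read beside the 23.2% of all tested genes that were called, 11.1% higher and 12.1% lower in KO1. Of the 23 tested macrophage markers 5 were called higher and 8 lower in KO1 (56.5% called, median -0.049). The higher ones had log2FC between 0.16 and 0.36. Of these Cd14, the co-receptor for lipopolysaccharide, was at 683 to 776 CPM in KO1 and 585 to 613 CPM in KO2 (0.31 ± 0.05), and the others were Cx3cr1 (the fractalkine receptor), Lyz2 (lysozyme), Trem2 (a lipid-sensing receptor) and Spi1 (the transcription factor PU.1). Mrc1, the mannose receptor CD206, was at 15 to 18.4 CPM in KO1 and 35.1 to 39.8 CPM in KO2 (-1.16 ± 0.08), Fcgr1, the high-affinity IgG receptor, at 40.2 to 46.9 and 62.1 to 66.1 CPM (-0.57 ± 0.06), the transcription factor Maf at 196 to 237 and 274 to 327 CPM (-0.51 ± 0.07), and the scavenger receptor Marco at 3.02 to 3.87 and 4.43 to 5.98 CPM (-0.60 ± 0.14). The number of higher markers was 2 without the first and 3 without the second KO2 library. Of 34 tested chemokine, Fc, Toll-like and lectin receptors, 10 were higher and 14 lower (70.6% called, median -0.043). Clec12a, an inhibitory lectin receptor for uric acid crystals, was at 127 to 156 CPM in KO1 and 44.5 to 54.5 CPM in KO2 (1.47 ± 0.08). Cd300lf, an inhibitory lipid receptor, was lower in KO1 (-1.31 ± 0.14), as was Tlr5, the flagellin receptor (-1.02 ± 0.13).

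Of 25 tested cytokines and chemokines, 5 were higher and 10 lower in KO1 (60% called, median -0.20). Tnf was at 93.9, 81.8 and 65.3 CPM in KO1 and at 203, 168 and 146 CPM in KO2 (-1.11 ± 0.11), with KO2 above the WT range of 49.3 to 105 CPM. Il1b, the inflammasome-processed interleukin, was at 0.116 to 0.197 and 1.21 to 1.91 CPM (-3.31 ± 0.36), and Il10, an anti-inflammatory cytokine, at 1.54 to 2.28 and 3.96 to 6.0 CPM (-1.52 ± 0.19). Il1rn, the antagonist of the IL-1 receptor, went the other way, at 53.4, 53.9 and 80.9 CPM in KO1 and 27.6, 23.4 and 27 CPM in KO2 (1.26 ± 0.13), and both clones were above the WT range of 12.8 to 19.2 CPM. The number of higher cytokine genes was 3 with DESeq2 and without the second KO2 library.

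Of 21 tested immediate early genes, the fast and short-lived response genes to signalling, 12 were lower in KO1 and none was higher (57.1% called, against 12.1% of all genes lower and 11.1% higher), with a median of -0.30 against 0.0031 over all genes. At an unadjusted p under 0.05 the numbers were 13 lower and 1 higher, and DESeq2 called 11 lower and none higher. Egr1, a zinc finger transcription factor, was at 4.6, 3.32 and 3.85 CPM in KO1 and at 15.3, 13.6 and 11 CPM in KO2 (-1.77 ± 0.13), within the WT range of 2.64 to 40.9 CPM. Nr4a1, an orphan nuclear receptor, was at 0.671 to 1.23 and 2.99 to 5.34 CPM (-1.95 ± 0.26), Ier3 at 27.4 to 34.5 and 56.9 to 74.1 CPM (-1.13 ± 0.09) and the MAP kinase phosphatase Dusp2 at 3.23 to 4.39 and 6.99 to 8.12 CPM (-1.0 ± 0.12). Fos, of the 12 the member on chromosome 12, was at 53.5, 49.3 and 45.2 CPM in KO1 and at 81, 78.9 and 74.5 CPM in KO2 (-0.67 ± 0.06). Without the second or the third KO1 library 1 member was called higher.

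Of 21 tested p53 targets and cell cycle brakes, 9 were higher and 3 lower in KO1 (57.1% called), with a median of 0.084. Cdkn1a, which encodes the cyclin-dependent kinase inhibitor p21, was at 273, 250 and 242 CPM in KO1 and at 191, 180 and 177 CPM in KO2 (0.47 ± 0.05, adjusted p = 4e-06), and both clones were above the WT range of 95.2 to 162 CPM. Phlda3, a p53-induced inhibitor of AKT, was at 30.2 to 37.7 and 17.9 to 21.1 CPM (0.83 ± 0.08), and the apoptosis effector Bax at 115 to 137 and 88.8 to 96.5 CPM (0.43 ± 0.06). Gadd45a, a stress sensor, was at 4.66 to 5.81 and 3.40 to 3.92 CPM (0.49 ± 0.13), with an adjusted p of 0.057 without the third KO1 library. Trp53 itself, the p53 gene, did not pass (0.04 ± 0.05, adjusted p = 0.63).

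In the list of DNA replication and mitosis genes 5 of 30 were called higher and 1 lower, or 20% called, below the 23.2% of all genes. The lower gene was Rrm2, a ribonucleotide reductase subunit on chromosome 12 (199 to 216 against 252 to 254 CPM, -0.29 ± 0.04), and the largest of the higher ones was Pcna, the sliding clamp of DNA polymerase (684 to 748 against 572 to 607 CPM, 0.26 ± 0.05). The higher count was 3 with DESeq2, 2 with RLE size factors, 1 with TMM factors from genes outside chromosome 12, and 2 without the second or the third KO1 library or any 1 KO2 library. The calls of the mitotic genes Bub1 (0.14 ± 0.05) and Kif11 (0.13 ± 0.04) were lost without 4 of the 6 libraries in turn, with adjusted p of 0.0713 to 0.187 for Bub1 and 0.0918 to 0.15 for Kif11.

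Complement, lysosome and cathepsin genes gave 5 higher and 10 lower of 27 tested (55.6% called, median -0.033). The 3 chains of C1q, the recognition unit of classical complement, were all lower in KO1, with C1qa at 193, 195 and 165 CPM in KO1 and 363, 394 and 407 CPM in KO2 (-1.08 ± 0.06), C1qc at -0.92 ± 0.06 and C1qb at -0.57 ± 0.05. C3, the central complement component, was higher, at 121 to 184 and 62.8 to 79.6 CPM (1.03 ± 0.13). Of the cathepsin proteases, Ctse was higher in KO1 (2.63 ± 0.26) and Ctsh lower (-1.74 ± 0.21), both at under 4 CPM. The list held 2 chromosome 12 genes, Lgmn and Npc2, and both were lower. The number of higher genes was 3 without the third KO1 library or the first or second KO2 library.

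Of 33 tested cholesterol and lipid genes, 6 were higher and 7 lower (39.4% called, median -0.039). The higher ones included the fatty acid binding proteins Fabp4 (7.58 to 13.2 CPM in KO1, 0.659 to 1.38 CPM in KO2, 3.34 ± 0.24) and Fabp5 (208 to 266 and 85.4 to 103 CPM, 1.30 ± 0.08), Lpl, Apoe (4.30 to 4.81 and 1.87 to 2.52 CPM, 0.99 ± 0.14) and Nr1h3, the oxysterol receptor LXR-alpha (1.34 to 1.5 and 0.622 to 0.672 CPM, 1.13 ± 0.22). Apoc2, the apolipoprotein that activates lipoprotein lipase, was lower (-1.97 ± 0.25). The number of lower genes was 3 without the first KO1 or the third KO2 library and 4 without the third KO1 or the second KO2 library.

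Adhesion, integrin and matrix genes gave 8 higher and 9 lower of 25 (68% called, median 0.033). Itgav, the alpha V integrin chain that binds vitronectin, was at 45.1 to 49.9 CPM in KO1 and 110 to 123 CPM in KO2 (-1.31 ± 0.05), below the WT range in KO1 and within it in KO2. Its partner Itgb5 was also lower (-0.83 ± 0.06), as was fibronectin, Fn1 (-1.12 ± 0.12). Col4a2, a basement membrane collagen, was at 3.67 to 5.16 and 0.659 to 1.65 CPM (1.98 ± 0.24), and the metalloproteinase Mmp19 was higher in KO1 too (0.89 ± 0.20).

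Of 23 tested oxidative stress, iron and nitric oxide genes, 6 were higher and 7 lower (56.5% called, median -0.045). Slc40a1, the iron exporter ferroportin, was at 41, 60 and 40.6 CPM in KO1 and at 106, 103 and 114 CPM in KO2 (-1.20 ± 0.10). Gpx1, a glutathione peroxidase, was at 618 to 684 and 444 to 503 CPM (0.47 ± 0.06). Cybb, the catalytic subunit of the phagocyte NADPH oxidase, was at 501 to 632 and 433 to 459 CPM (0.28 ± 0.07, adjusted p = 0.009), but its adjusted p was 0.081 with DESeq2 and 0.0504 without the second KO2 library. Acod1, which makes itaconate, was at 2.05 to 4.24 and 1.46 to 1.58 CPM (0.99 ± 0.23, adjusted p = 0.0057, or 0.0703 when all 30 libraries entered the fit). Without the third KO2 library 3 genes of the list were called lower.

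Interferon-stimulated genes, in these cells without added interferon, gave 5 higher and 6 lower of 29 tested (37.9% called, median -0.11). Irf1, a transcription factor downstream of IFNG, was at 16.7 to 18.6 CPM in KO1 and 22.8 to 26 CPM in KO2 (-0.48 ± 0.07). The paralogs Oasl1 and Oasl2 went in opposite directions (-0.59 ± 0.15 and 0.70 ± 0.14), with Oasl1 at an adjusted p of 0.059 with DESeq2. Usp18, which removes ISG15 from proteins, had 0.55 ± 0.19 (adjusted p = 0.046) and lost its call with DESeq2 and without 5 of the 6 libraries in turn. With DESeq2 2 members of the list were called higher and 4 lower. Leaving out 1 library in turn gave 2 or 3 higher and 3 to 7 lower, with the fewest lower without the third KO1 library.

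Of 19 tested genes of MHC presentation, 4 were higher and 2 lower (31.6% called, median 0.12). H2-D1, a classical class I heavy chain, was at 424 to 462 and 354 to 391 CPM (0.22 ± 0.05), Tapbp, the tapasin of the peptide loading complex, at 203 to 208 and 171 to 184 CPM (0.19 ± 0.04), and Nlrc5, the class I transactivator, at 7.93 to 8.74 and 6.45 to 6.81 CPM (0.33 ± 0.09, adjusted p = 0.013, 0.079 with DESeq2 and 0.051 without the first KO1 library). H2-Oa was lower at about 1 to 2 CPM (-0.73 ± 0.23), and its call was lost with DESeq2 (adjusted p = 0.11) and without 4 of the 6 libraries in turn. Class I genes have close paralogs, and how uniquely aligned fragments divide between them was not tested. The list had 2 higher without the first KO1 library, and none lower without the second KO1, the second KO2 or the third KO2 library.

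Glycolysis genes gave 2 higher and 1 lower of 20 tested (15% called, below the 23.2% of all genes) and a median of 0.071. Pfkp, the platelet form of phosphofructokinase, was at 187 to 230 and 164 to 181 CPM (0.28 ± 0.06), Pgam1, phosphoglycerate mutase, at 463 to 505 and 411 to 437 CPM (0.19 ± 0.05) and Hk2, hexokinase 2, at 60.3 to 68.8 and 69.4 to 78.0 CPM (-0.19 ± 0.06). The Hk2 call was lost without the second KO1 library (adjusted p = 0.117) and without the first (0.101) or second (0.0911) KO2 library. The list had 5 higher and 1 lower without the second KO1 library, and 4 higher and none lower without the second KO2 library.

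Against the untreated WT clones, KO1 was outside their range for more genes than KO2. Of the 3207 called genes, all 3 KO1 libraries but not the KO2 libraries lay outside the range of the 9 WT libraries for 1189 (37.1%), the KO2 libraries alone for 291 (9.07%) and both for 337 (10.5%, on opposite sides of WT for 26), and for 1390 (43.3%) neither clone did. On chromosome 12 the numbers were 227, 20, 25 and 79 of 351. WT1 stood apart from the other WT clones, as the numbers below show, and against the 6 WT2 and WT3 libraries alone the numbers were 1260, 479, 1004 and 464 for all called genes and 198, 28, 90 and 35 for chromosome 12. For the WT2 and WT3 range the shares over all tested genes were not counted. The WT libraries are shared by both sides of this description.

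Unedited clones of the line were also separated by many genes. WT1 and WT2 differed at 7206 of 13863 tested genes (52%), WT1 and WT3 at 7117 of 14021 (50.8%) and WT2 and WT3 at 2290 of 13310 (17.2%). The number between KO1 and KO2 lay between these. Chromosome 12 did not stand apart in any WT pair, with 52.8%, 49.2% and 17.3% of its genes called and medians of -0.030, -0.010 and 0.010. The chromosome medians farthest from 0 in the WT pairs were those of chromosome 17 in the pairs with WT1, at 0.27 and 0.25.

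The same contrast was measured a second time in the IFNG-treated libraries, which the untreated comparison does not share. There, 2064 of 13860 tested genes (14.9%) were called, 905 higher and 1159 lower in KO1, and chromosome 12 held 322 of them, 316 lower and 6 higher, of 497 tested (64.8%). The chromosome 12 median was -0.37, and the other chromosomes together had 13% called and a median of 0.0046. Without the second KO2 library the IFNG comparison called 1328 genes. Of the 3207 genes called in untreated cells, 3170 were tested after IFNG, 3026 of them (95.5%) with the same sign, and 1550 (48.9%) were called in the same direction and 4 in the opposite one. Among genes not called in untreated cells the sign was the same for 67.8%. On chromosome 12, 348 of 349 had the same sign and 301 (86.2%) were called in the same direction.

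**Figure D5:**
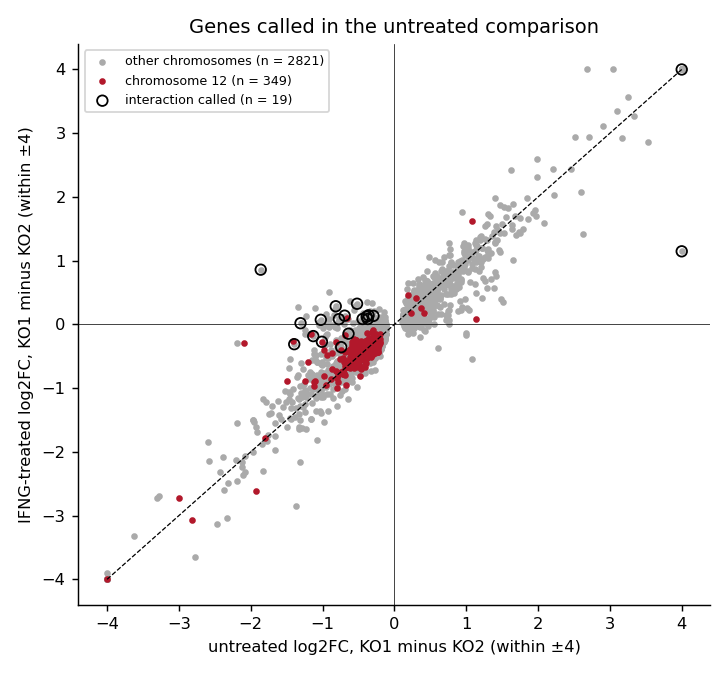
Log2FC between KO1 and KO2 after IFNG (vertical axis) against that in untreated cells (horizontal axis) for the 3170 genes called in untreated cells and tested in both, drawn within ±4, with chromosome 12 in red and genes with a called interaction circled. Most points lie along the dashed line of equal values, and most circled genes are lower in KO1 when untreated and near 0 after IFNG.

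All 95 named genes kept their sign after IFNG, and 78 of them were called in the same direction. Chd3, for example, had a log2FC of -3.32 after IFNG, Gpnmb 4.02, Gas6 5.26 and Sdc1 -2.73. Dicer1 was at 80.9, 71.5 and 72.5 CPM in IFNG-treated KO1 and 96.9, 105 and 97.3 CPM in IFNG-treated KO2 (-0.41, adjusted p = 0.0003). A test of the change in the KO1 minus KO2 difference with treatment did not pass for Dicer1 (0.17, adjusted p = 0.72). That test was passed by 22 of 14370 genes (0.153%), with 20 in the direction of a higher KO1 relative to KO2 after IFNG. Among the genes named above these were Anpep, Nfkbia and Ier3. Nfkbia rose from 83.0 to 156 CPM in KO1 and from 166 to 189 CPM in KO2, which took its log2FC from -1.01 to -0.27 (adjusted p = 0.069).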

How the data were processed

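RNA-seq of J774A.1 clones was counted per gene. The authors removed adapters using BBDuk, aligned the reads to the mm10 genome using HISAT2 2.1.0, kept uniquely aligned fragments with SAMtools 1.10 and counted them with featureCounts 1.6.2 as reversely stranded, giving a fragment to every gene it overlapped. The file header gives these counting options with the Gencode vM18 annotation, while the study's methods name RefSeq, and the gene IDs in the table are Ensembl IDs as Gencode uses. The raw counts they deposited for 54146 genes in 30 libraries, not normalized, were used here. The table names the WT columns differently from the labels, and they were tied to WT2 and WT3 through the authors' tables for each clone. The 13 other deposited tables were not used for values, and any fold changes and p-values of the authors' own comparisons in them were not read.

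KO1 was compared with KO2 by edgeR 4.0.16 in R 4.3.3 (filterByExpr, TMM, quasi-likelihood test, Benjamini-Hochberg adjustment over all genes tested, threshold 0.05), with DESeq2 1.42.0 as an alternative. In a simulation of 13826 genes from these 6 libraries, edgeR recovered 195 of 200 changed genes with 12 false calls. The simulation changed only well-counted genes, by folds larger than most of the differences called here. It did not measure recovery of smaller differences or of a shift shared by a chromosome. The SE is the log2FC over the root of the quasi-likelihood F. CPM used TMM factors over all 30 libraries, and shifts against WT used log2(CPM + 0.5). Gene positions and types came from the deposited table and GENCODE vM21, which held 54079 of the gene IDs. The depth was 23760033 to 29587932 counts per library, and intervals and floors cover counting error only.

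The members and gene lists were chosen with earlier results of these data known. Genes were named among called genes that averaged 1 CPM or more in the higher clone and no overlap between the clones: the 10 highest and 10 lowest log2FC, the 5 largest CPM differences in each direction, the 6 lowest and 6 highest on chromosome 12 with Dicer1, up to 4 members of each list, and up to 10 in each direction with at most 3 counts in a clone. Predicted genes, Rik genes and genes ending in -ps were to be counted only. Apoe, C1qb, C1qc, C3, Cd14, Csf1r, Cx3cr1, Efr3b, Fos, Itgb5, Lyz2, Npc2, Pnn, S100a8, Spi1, Srp54b, Tnrc6b, Trem2 and Trp53 were named outside this rule, after their values were seen. Alternatives were RLE factors, TMM factors from genes on or outside chromosome 12, other count filters, thinning to one depth, all 30 libraries in 1 fit and leaving out each library.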

Additional observations from a re-analysis of the deposited data

Results flagged for a closer look

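The results below were singled out because the KO1 minus KO2 difference changed between untreated and IFNG-treated cells, by edgeR's test of the clone by treatment interaction over the 12 KO libraries. The test was passed by 22 of 14370 genes, and 927 had an unadjusted p under 0.05. Values are the difference after IFNG minus that in untreated cells, on the log2 scale. Of regulators of cytokine and NF-kB signalling, Socs3, a feedback inhibitor of JAK signalling, had 1.34, Zfp36, which destabilises cytokine mRNAs, 1.1, Nfkbia 0.75, Ier3 0.96, Stat3 0.52, Pim1 0.51, Dusp10 0.65 and the receptor subunit gene Csf2rb2 0.40. Of interferon-inducible genes, Gbp7 had 0.87, Slfn4 0.86, Ifi44 0.52 and Parp14 0.47. The nuclear noncoding RNAs Neat1 and Malat1 had 0.85 and 0.61. Cdc42ep2 had 1.12, Gm43802 1.11, Pde1b 0.61, Pou2f2 0.54 and Atp6v0a1 0.44. H2-K2 had 2.74, and as a close copy of other class I genes its counts are uncertain. Anpep had -3.50 and Ak4 -2.93, and both rest on a few counts in untreated KO2. Groups of 3 libraries were not tested for outlying samples.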

How the results depend on the processing

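Of 1296 values of 94 named genes besides Dicer1 under an alternative, 1225 kept direction and side of the threshold, 65 lost the threshold and 6 turned. No paired analysis was possible because the columns carry no replicate numbers. Called genes numbered 2579 with DESeq2, 3190 with RLE factors, 3212 with TMM outside chromosome 12, 3484 without a filter, 3098 with at least 10 counts in every library, 3108 thinned and 3139 with all 30 libraries. Leaving out a library gave 2265 (without the second KO2 library) to 2889, with 332 to 344 on chromosome 12, which was 11.8% to 14.7% of called genes against 12.6% with DESeq2. At an absolute log2FC of at least 1 there were 330 called, 143 higher and 187 lower, with 19 (5.76%) on chromosome 12. TMM on chromosome 12 genes, which centres that chromosome by construction, called 10509, 10138 higher and 371 lower, with 163 (1.55%) on chromosome 12 and a median there of 0.0071, and turned Dab2 to 0.019, Fth1 to 0.19, Dync1h1 to 0.071, Hsp90aa1 to 0.15, Hk2 to 0.19 and Rrm2 to 0.091. The IFNG comparison called 1328 (without the second KO2 library) to 2294 with 1 library left out and 1713 with DESeq2, and WT2 against WT3 called 1336 with DESeq2. The range of WT2 and WT3 alone was chosen after seeing the data.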
